A study of Homo sapiens with 12 samples.

Results

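The ERBB and FGF receptor genes were followed through 3 human prostate cancer lines. The 9 genes were taken by symbol from a table of 57992 Ensembl genes. They are the receptors EGFR, ERBB2, ERBB3 and ERBB4, the receptors FGFR1 to FGFR4, and ERRFI1, an inhibitor of ERBB receptors. LNCaP is an androgen-responsive line from a lymph node metastasis. C4-2 descends from LNCaP and grows without testicular androgen, and MR49F is a LNCaP derivative that resists the antiandrogen enzalutamide. The labels call LNCaP and C4-2 sensitive to enzalutamide and MR49F resistant, and give 3 biological replicates of poly(A) RNA for each. They name no drug, dose or time for the cultures that were sequenced. Each line is a single cell line, so resistance cannot be told apart from other differences between lines. The p-values measure only the spread between replicates within a line, estimated over the 3 lines together. The resistant line C4-2R was not analysed here, because the 3 remaining columns of the table carry a name that matches no sample and could be given to C4-2R only by elimination.

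ERBB receptors are tyrosine kinases that pair with each other once a ligand of the EGF or neuregulin family binds. ERBB2 has no known ligand of its own and ERBB3 has a kinase of very low activity, so the pair of ERBB2 and ERBB3 signals through both partners, largely to PI3K. FGF receptors bind fibroblast growth factors together with heparan sulfate or a Klotho protein and signal mainly through the adaptor FRS2 to RAS and ERK. Both families are studied in prostate cancer as routes of growth that do not depend on androgen.

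EGFR and FGFR3 moved in the same directions, up in C4-2 and down in MR49F, while ERBB2 was lower in both lines and FGFR2 higher in both. ERBB3 went the same ways as EGFR by smaller amounts, and its C4-2 call was lost in 6 of 16 alternative fits. The RefSeq promoter windows of EGFR, FGFR3, ERBB2 and FGFR2 are shown, because the results turn mainly on these 4 genes. Each runs from 250 bases before to 50 after a transcript start (GRCh38.p14). ERBB3 had no matched window. Capitals mark matches to the GC box GGGCGG or its reverse complement CCGCCC. The windows are chr7:55018767-55019066 (EGFR, plus strand), chr4:1793043-1793342 (FGFR3, plus strand), chr17:39687844-39688143 (ERBB2, plus strand) and chr10:121598395-121598694 (FGFR2, minus strand).
EGFR: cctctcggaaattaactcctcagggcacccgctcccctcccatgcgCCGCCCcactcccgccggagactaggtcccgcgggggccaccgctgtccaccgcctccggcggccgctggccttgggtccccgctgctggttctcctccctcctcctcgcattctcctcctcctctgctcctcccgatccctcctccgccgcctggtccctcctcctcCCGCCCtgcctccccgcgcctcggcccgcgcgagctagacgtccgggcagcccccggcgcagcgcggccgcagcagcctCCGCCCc
FGFR3: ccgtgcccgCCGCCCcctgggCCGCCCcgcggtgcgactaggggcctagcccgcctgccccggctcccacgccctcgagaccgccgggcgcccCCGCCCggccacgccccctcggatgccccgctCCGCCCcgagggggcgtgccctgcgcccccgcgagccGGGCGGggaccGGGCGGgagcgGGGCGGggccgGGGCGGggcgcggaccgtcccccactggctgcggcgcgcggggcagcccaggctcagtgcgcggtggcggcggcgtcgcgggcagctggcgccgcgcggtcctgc
ERBB2: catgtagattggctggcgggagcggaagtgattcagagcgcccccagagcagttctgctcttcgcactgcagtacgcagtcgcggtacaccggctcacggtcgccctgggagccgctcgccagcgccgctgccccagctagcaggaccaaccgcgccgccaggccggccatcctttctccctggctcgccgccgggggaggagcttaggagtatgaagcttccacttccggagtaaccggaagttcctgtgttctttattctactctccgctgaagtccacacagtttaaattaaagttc
FGFR2: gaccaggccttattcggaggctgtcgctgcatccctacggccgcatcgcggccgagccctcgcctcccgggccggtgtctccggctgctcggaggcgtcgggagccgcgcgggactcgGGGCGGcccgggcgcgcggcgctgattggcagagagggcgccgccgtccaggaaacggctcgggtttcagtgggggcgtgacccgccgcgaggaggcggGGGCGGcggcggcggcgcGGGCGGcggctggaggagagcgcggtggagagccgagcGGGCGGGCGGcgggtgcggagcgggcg
The EGFR window held 3 matches, the FGFR3 window 8, the FGFR2 window 5 (including a pair that overlap each other) and the ERBB2 window 0. Of 35116 RefSeq promoter windows of the same length, 45.0% held at least 1 match and 15.8% held 3 or more. None of the 4 windows held the letters TATAAA on either strand, which 11.5% of all windows did. These matches describe the letters only. Counts per gene do not show which transcript start was in use. Each window covers the outermost annotated start of its gene, and windows at other starts were not examined. The 0 matches for ERBB2, a gene that PGAP3 overlaps on the opposite strand, therefore hold for that window only.

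Total gene counts ran from 6990461 to 9375912 in 8 libraries and reached 42770072 in C4-2 replicate 1, which therefore stands apart in depth. Luminal prostate markers summed to 5500 to 8520 CPM (gene counts scaled to a common depth with TMM-adjusted library sizes), and all 8 of them passed the count filter. Markers of other cell types were low. The neuroendocrine list summed to 28.5 to 34.1 CPM in LNCaP and MR49F and at most 12.6 in C4-2, with INSM1 at 0 counts. The basal list summed to 0.461 to 1.42 CPM with KRT5 at 0 counts, the endothelial list to 0.594 to 4.82 CPM with CDH5 at 0, and the immune list to 0.138 to 0.227 CPM in LNCaP, 3.04 to 4.01 in C4-2 and 0.922 to 2.14 in MR49F with CD3E and MS4A1 at 0. The fibroblast list (7 genes, COL1A2 and PDGFRA at 0) summed to 26.2 to 30.1 CPM in LNCaP, 21.8 to 27.0 in C4-2 and 7.61 to 9.26 in MR49F, and the part of these lists in the results was not tested. In such bulk RNA, fewer expressing cells and less RNA per cell cannot be told apart.

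**Figure D1:**
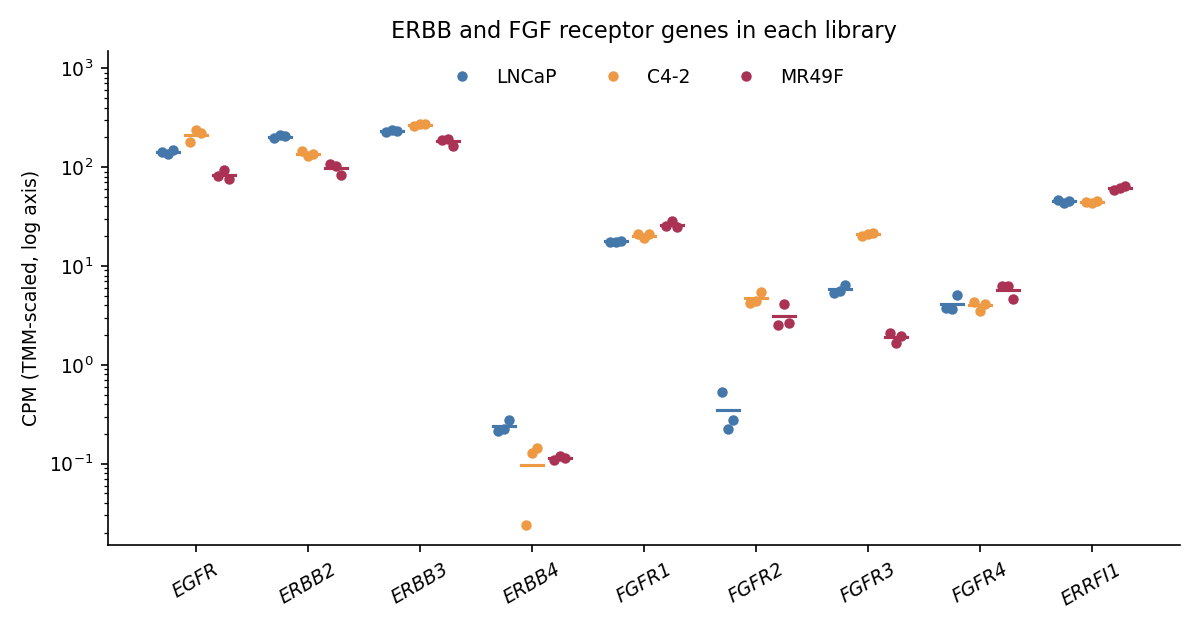
CPM on a log axis of the 9 genes (x axis) in each of the 9 libraries. Each point is a library, each bar a mean over 3 replicates, and each colour a line. FGFR3 averaged 5.80 CPM in LNCaP, 20.8 in C4-2 and 1.90 in MR49F, and the libraries of the 3 lines do not overlap.

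Of the 9 genes, 8 passed the count filter and ERBB4 did not. In MR49F against LNCaP, 7 of the 8 passed the test, 3 higher and 4 lower, where 47.0% of all 15407 tested genes passed (24.1% higher and 22.8% lower). In C4-2 against LNCaP, 5 of the 8 passed, 4 higher and 1 lower, against 49.7% of all genes (26.2% higher and 23.5% lower). In MR49F against C4-2, all 8 passed, 3 higher and 5 lower, against 61.0% of all genes (29.9% higher and 31.1% lower). The calls come from edgeR's quasi-likelihood test, at a p under 0.05 after Benjamini-Hochberg adjustment over the whole table. Libraries of the compared lines did not overlap for 59.8%, 55.7% and 61.9% of the tested genes, in the same order. With so many genes called between these lines, the share of members called is not by itself a result about them, and sizes and directions are given gene by gene. The comparisons share libraries, so their values are set side by side only.

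EGFR, the receptor for EGF and TGF-alpha (ENSG00000146648, GRCh38 chromosome 7, 55019021 to 55211628), was measured at 142, 137 and 150 CPM in the LNCaP libraries, 179, 237 and 220 in C4-2, and 80.8, 92.9 and 75.8 in MR49F. The lines did not overlap, and C4-2 was the highest and MR49F the lowest. EGFR was 1.72-fold lower in MR49F than in LNCaP (log2 fold change -0.78, SE 0.102, edgeR adjusted p = 2.35e-06). It was 1.48-fold higher in C4-2 than in LNCaP (0.56, SE 0.0986, adjusted p = 8.09e-05). The direct contrast of MR49F with C4-2, which tests whether those differences differ, gave a 2.54-fold lower level in MR49F (log2 fold change -1.35, SE 0.101, adjusted p = 4.19e-10). The C4-2 difference from LNCaP was 0.68 without C4-2 replicate 1, the lowest of its line. It was 0.47 without C4-2 replicate 2, the highest, and 0.53 without C4-2 replicate 3.

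ERBB2, the ligandless partner of the other receptors (ENSG00000141736, chromosome 17, 39687914 to 39730426), fell in both derivatives. Its CPM was 195, 212 and 204 in LNCaP, 145, 128 and 136 in C4-2, and 107, 102 and 83.6 in MR49F. Every LNCaP library lay above every library of C4-2, and those lay above MR49F. ERBB2 was 2.09-fold lower in MR49F than in LNCaP (log2 fold change -1.06, SE 0.0911, adjusted p = 5.48e-09) and 1.49-fold lower in C4-2 (-0.58, SE 0.0891, adjusted p = 1.86e-05). MR49F was also below C4-2 (-0.49, SE 0.0909, adjusted p = 1.02e-04). The genes MIEN1 and PGAP3 overlap ERBB2 on the opposite strand, and the strand setting of the counting is not given in the sources used here. Their own values did not fall with ERBB2 in MR49F: MIEN1, named for this overlap after the values were seen, rose (0.77, adjusted p = 9.37e-06), and PGAP3 had the log2 fold change -0.01 (adjusted p = 0.966).

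ERBB3, the neuregulin receptor (ENSG00000065361, chromosome 12, 56076799 to 56103505), differed from LNCaP by less than EGFR or ERBB2 did in both derivatives. It stood at 227, 237 and 234 CPM in LNCaP, 259, 275 and 271 in C4-2, and 189, 191 and 165 in MR49F. These groups did not overlap, in the order C4-2, LNCaP, MR49F. ERBB3 was 1.28-fold lower in MR49F than in LNCaP (log2 fold change -0.36, SE 0.0769, adjusted p = 6.71e-04) and 1.48-fold lower than in C4-2 (-0.56, SE 0.0766, adjusted p = 2.39e-06). The difference of C4-2 from LNCaP was 0.20 (SE 0.0761, adjusted p = 0.0323). That call was lost when any 1 LNCaP library, C4-2 replicate 2 or C4-2 replicate 3 was left out (adjusted p 0.0623 to 0.136, log2 fold changes 0.18 to 0.20), and with no count filter (0.21, adjusted p = 0.0536). Over all 16 alternatives its adjusted p ran from 0.00653 to 0.136.

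ERBB4, also a neuregulin receptor (ENSG00000178568, chromosome 2, 211375717 to 212538841), was nearly undetected. Each LNCaP library had 2 counts and each C4-2 and MR49F library had 1. LNCaP therefore held 6 counts over its libraries against 3 over C4-2, a ratio of 4.71 per total counts (exact 95% binomial interval 1.01 to 29.1), and 3 over MR49F, a ratio of 2.19 (0.468 to 13.5). The first ratio rests on the deep C4-2 replicate 1: without it, with 2 counts left over C4-2, it was 1.84 (0.329 to 18.7). These intervals cover counting error only, and no test was made at this depth.

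ERRFI1, a cytosolic protein that binds ERBB kinases and blocks them, and whose gene is induced by the signal it limits (ENSG00000116285, chromosome 1, 8004404 to 8026308), was higher in MR49F. It was at 45.9, 43.4 and 45.6 CPM in LNCaP, 44.0, 43.3 and 45.5 in C4-2, and 58.3, 61.9 and 63.9 in MR49F. The MR49F libraries all lay above the others, while LNCaP and C4-2 overlapped. ERRFI1 was 1.36-fold higher in MR49F than in LNCaP (log2 fold change 0.45, SE 0.0855, adjusted p = 2.12e-04), and had the log2 fold change -0.02 in C4-2 (SE 0.0859, adjusted p = 0.840). MR49F was also above C4-2 (0.47, SE 0.0840, adjusted p = 6.05e-05). The inhibitor and EGFR thus moved in opposite directions in MR49F, and a link between them was not tested.

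FGFR1 (ENSG00000077782, chromosome 8, 38400215 to 38468834), a widely expressed FGF receptor, rose in MR49F. It was at 17.6, 17.6 and 17.9 CPM in LNCaP, 20.8, 19.1 and 21.0 in C4-2, and 25.3, 28.3 and 24.8 in MR49F. The libraries did not overlap between lines. FGFR1 was 1.47-fold higher in MR49F than in LNCaP (log2 fold change 0.56, SE 0.109, adjusted p = 2.52e-04) and 1.28-fold higher than in C4-2 (0.36, SE 0.103, adjusted p = 0.00548). The difference of C4-2 from LNCaP, 0.20 (SE 0.108, adjusted p = 0.125), did not pass although the libraries did not overlap, as was so for 55.7% of all tested genes in that comparison.

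FGFR2, known for its epithelial and mesenchymal splice forms, which these gene counts do not separate (ENSG00000066468, chromosome 10, 121478334 to 121598458), was close to silent in LNCaP and present at low levels in the derivatives. The LNCaP libraries had 5, 2 and 2 counts, C4-2 had 177, 35 and 38, and MR49F had 23, 35 and 23. In CPM these were 0.534, 0.227 and 0.276 in LNCaP, 4.25, 4.43 and 5.44 in C4-2, and 2.52, 4.16 and 2.65 in MR49F. Both derivatives lay above every LNCaP library. The fitted log2 fold change was 3.09 in MR49F (SE 0.402, adjusted p = 2.28e-06) and 3.65 in C4-2 (SE 0.358, adjusted p = 4.06e-08). With 9 counts over LNCaP the size is imprecise: the pooled ratio was 8.21 for MR49F (exact 95% binomial interval 4.12 to 18.6) and 11.8 for C4-2 (6.11 to 26.1). MR49F was lower than C4-2 by a narrow margin (-0.56, SE 0.225, adjusted p = 0.0373). That call was lost in 5 of 16 alternatives, namely without C4-2 replicate 3 (-0.48), without MR49F replicate 1 (-0.42) or 3 (-0.46), with DESeq2 (-0.59) and with C4-2 replicate 1 thinned (-0.51). The adjusted p over all alternatives ran from 0.010 to 0.169.

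FGFR3 (ENSG00000068078, chromosome 4, 1793293 to 1808872), a receptor that limits bone growth and is often activated in bladder cancer, had the largest contrast of the 8 tested genes between MR49F and C4-2. It was at 5.34, 5.57 and 6.48 CPM in LNCaP, 20.2, 20.9 and 21.3 in C4-2, and 2.08, 1.66 and 1.96 in MR49F. C4-2 was highest and MR49F lowest, without overlap. FGFR3 was 3.01-fold lower in MR49F than in LNCaP (log2 fold change -1.59, SE 0.203, adjusted p = 1.83e-06) and 3.59-fold higher in C4-2 (1.84, SE 0.137, adjusted p = 5.81e-10). Between MR49F and C4-2 the difference was 10.8-fold (-3.43, SE 0.166, adjusted p = 3.06e-13).

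FGFR4, the receptor that pairs with the co-receptor KLB (ENSG00000160867, chromosome 5, 177086886 to 177098144), was at 3.74, 3.64 and 5.10 CPM in LNCaP, 4.30, 3.54 and 4.15 in C4-2, and 6.24, 6.29 and 4.61 in MR49F. LNCaP overlapped both other lines. Its log2 fold change was 0.48 in MR49F (SE 0.204, adjusted p = 0.0623) and -0.01 in C4-2 (SE 0.203, adjusted p = 0.985). The MR49F difference from LNCaP passed without LNCaP replicate 3 (0.62, adjusted p = 0.0379), without MR49F replicate 3 (0.60, adjusted p = 0.0321) or without C4-2 replicate 1 (0.48, adjusted p = 0.0431), out of a range of 0.0321 to 0.220 over 16 alternatives. MR49F exceeded C4-2 by 0.48 (SE 0.189, adjusted p = 0.0331). That call was lost in 7 of 16 alternatives: without C4-2 replicate 2 or 3, without MR49F replicate 1 or 2, with DESeq2, without the count filter and in a fit of the 6 libraries alone (adjusted p 0.0518 to 0.117, log2 fold changes 0.41 to 0.49). Over all 16 its adjusted p ran from 0.0158 to 0.117.

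**Figure D2:**
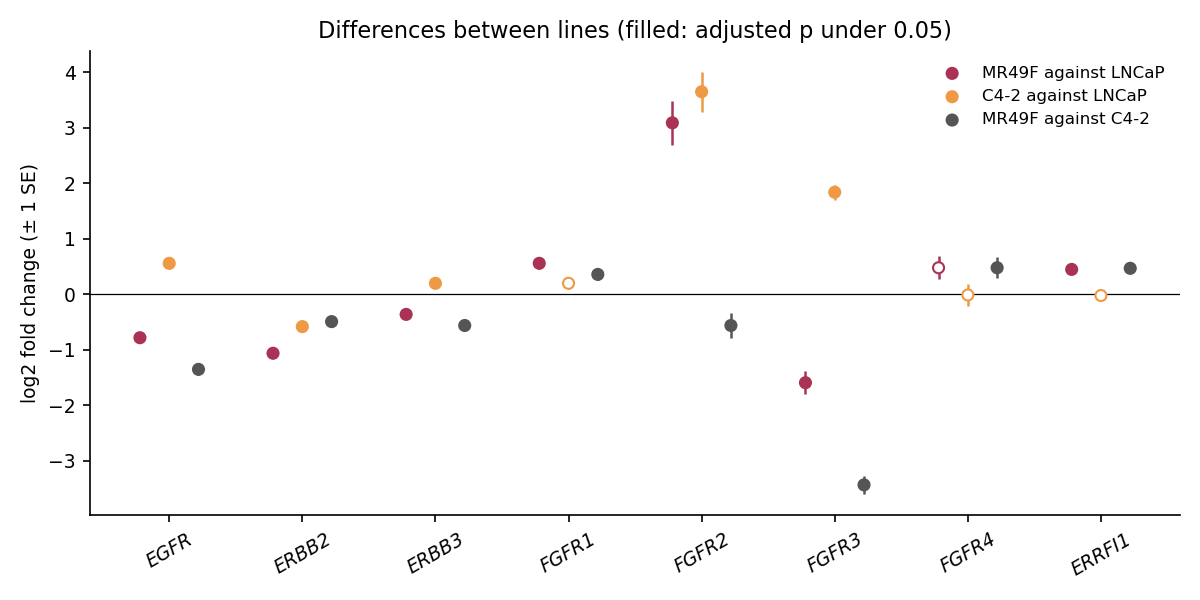
Log2 fold change (y axis) with 1 SE of the 8 tested genes in the 3 comparisons, which share libraries. Filled points have an edgeR adjusted p under 0.05 and open points do not. EGFR, ERBB3 and FGFR3 lie below 0 in MR49F against LNCaP and above 0 in C4-2 against LNCaP. ERBB2 lies below 0 in both.

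The ratio of 2 genes within a library does not depend on how the libraries were scaled. EGFR had 0.728, 0.648 and 0.734 counts per ERBB2 count in LNCaP, 1.23, 1.86 and 1.62 in C4-2, and 0.756, 0.910 and 0.908 in MR49F. C4-2 thus held more EGFR than ERBB2 reads in each library, and the other lines fewer. FGFR3 had 0.303, 0.316 and 0.362 counts per FGFR1 count in LNCaP, 0.968, 1.09 and 1.01 in C4-2, and 0.0823, 0.0588 and 0.0791 in MR49F, with no overlap. ERRFI1 had 0.323, 0.316 and 0.304 counts per EGFR count in LNCaP, 0.246, 0.182 and 0.207 in C4-2, and 0.722, 0.666 and 0.842 in MR49F. The MR49F libraries were the highest in this inhibitor-to-receptor ratio and the C4-2 libraries the lowest. No p is given for these ratios, since the smallest that exact permutation of 3 and 3 libraries allows is 0.1.

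**Figure D3:**
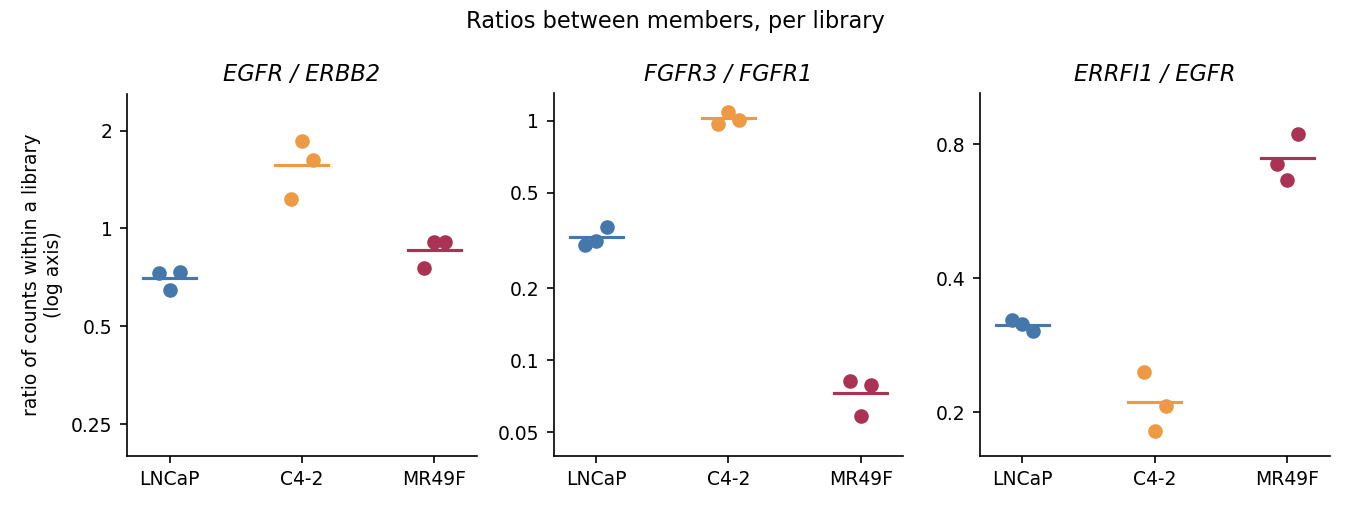
Ratios of counts within each library on log axes: EGFR to ERBB2, FGFR3 to FGFR1, and ERRFI1 to EGFR. Points are libraries and bars are means of 3 replicates. The mean FGFR3 to FGFR1 ratio was 0.327 in LNCaP, 1.02 in C4-2 and 0.0734 in MR49F.

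To compare levels between genes, CPM was divided by the length of the merged exons in kilobases. On this scale ERBB3 led in each line, at 25.8 ± 0.553 CPM per kb in LNCaP, 29.7 ± 0.885 in C4-2 and 20.1 ± 1.58 in MR49F (SD, n = 3 each). ERBB2 followed in LNCaP at 19.7 ± 0.792, above EGFR (11.4 ± 0.517) and ERRFI1 (10.7 ± 0.330), which overlapped each other. In C4-2 the order was ERBB3, EGFR (16.9 ± 2.41), ERBB2 (13.2 ± 0.867) and ERRFI1 (10.6 ± 0.270), with no overlap between neighbours. In MR49F ERRFI1 (14.7 ± 0.670) came second, ahead of ERBB2 (9.44 ± 1.19) and EGFR (6.64 ± 0.700). All FGF receptors lay below these 4 genes in every line.

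Among the FGF receptors, FGFR1 (1.28 ± 0.0127 CPM per kb) and FGFR3 (1.2 ± 0.124) overlapped in LNCaP, followed by FGFR4 (0.861 ± 0.169), FGFR2 (0.0456 ± 0.0218) and then ERBB4. In C4-2 FGFR3 led (4.29 ± 0.122), ahead of FGFR1 (1.47 ± 0.0764), FGFR4 (0.828 ± 0.0829) and FGFR2 (0.621 ± 0.0844). In MR49F FGFR1 led (1.89 ± 0.136), ahead of FGFR4 (1.18 ± 0.198), while FGFR2 (0.410 ± 0.120) and FGFR3 (0.392 ± 0.0442) overlapped. The order partly depends on the length used. With the longest coding transcript in place of merged exons, an alternative chosen after seeing the data, ERBB2 led in LNCaP (42.5 against 39.3 CPM per kb for ERBB3), stood above EGFR in C4-2 (28.4 against 21.6) and stood level with ERRFI1 in MR49F (20.3 against 19.8). On that length FGFR1 (2.93) stood above FGFR3 (1.31) in LNCaP without overlap, FGFR4 (1.33) overlapped FGFR3 there, and FGFR2 (0.711) stood above FGFR3 (0.428) in MR49F without overlap. In C4-2, FGFR4 (1.28) and FGFR2 (1.08) then overlapped.

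As shares of the summed signal of its family per kb of merged exons, FGFR3 made up 35.3% ± 0.954 in LNCaP, 59.5% ± 1.71 in C4-2 and 10.3% ± 1.90 in MR49F (SD, n = 3 each). FGFR1 made up 38.0% ± 2.77, 20.4% ± 0.755 and 48.8% ± 2.12 of the FGF receptor signal in the same order. Within the ERBB family EGFR held 20.1% ± 0.964, 28.2% ± 2.93 and 18.4% ± 1.14, and ERBB2 34.6% ± 0.757, 22.1% ± 2.38 and 26.1% ± 1.29. On this length ERBB3 held the greatest share in each line, 55.5% ± 0.709 in MR49F. With the longest coding transcript as length, ERBB2 held more than ERBB3 in all 3 LNCaP libraries (44.1% ± 0.786 against 40.8% ± 0.213), while ERBB3 still led in C4-2 and MR49F. The FGFR3 share was then 23.1% ± 0.880 in LNCaP, 45.1% ± 1.68 in C4-2 and 5.95% ± 1.10 in MR49F, in the same order of lines. The summed CPM of the ERBB family in MR49F was 325 to 386 against 565 to 589 in LNCaP and 583 to 640 in C4-2. The FGF receptor sum went from 27.0 to 29.8 CPM in LNCaP to 48.0 to 51.9 in C4-2 and 34.0 to 40.4 in MR49F. The ERBB sum thus was lowest in MR49F and the FGF receptor sum lowest in LNCaP.

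**Figure D4:**
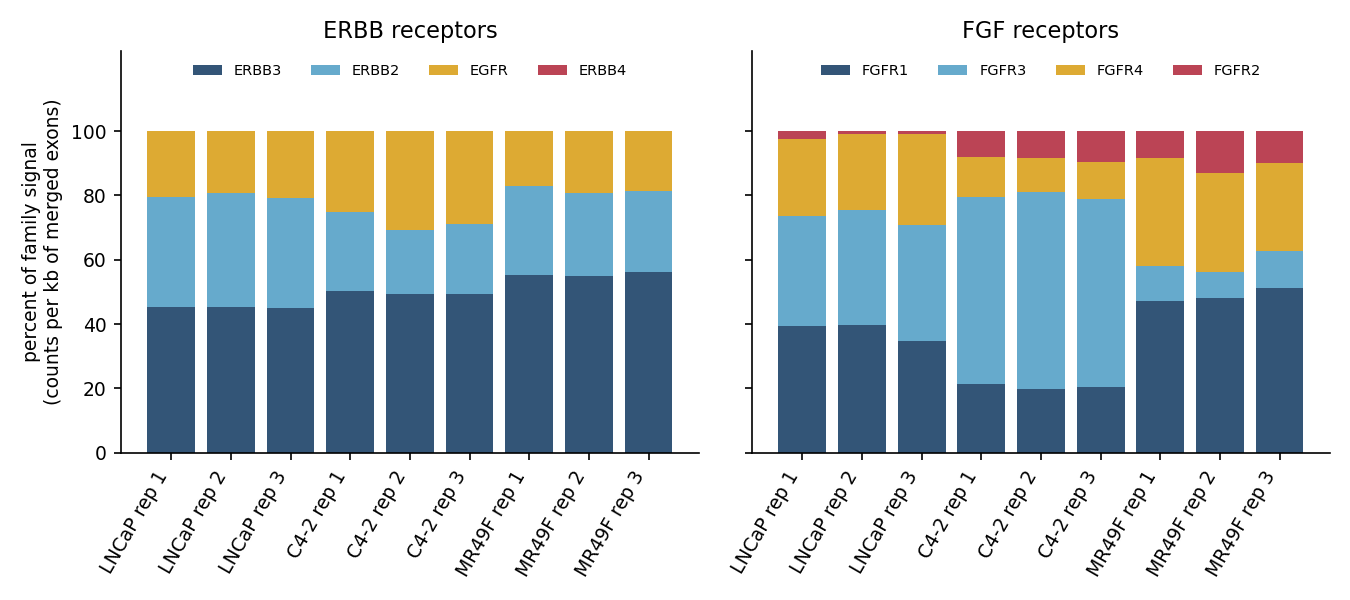
Stacked bars of each receptor's percent of its family's counts per kb of merged exons, 1 bar per library. FGFR3 takes 59.5% on average in C4-2 and 10.3% in MR49F, and on this length ERBB3 is the largest ERBB part in all 9 libraries, whereas ERBB2 is the largest in LNCaP with the longest coding transcript as length.

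Over the 9 libraries, likeness of pattern was measured as the root mean square difference between log2 CPM values, each centred on its own mean, among 12169 protein-coding genes of at least 1 CPM. TRIM5 (0.0983) and GLG1 (0.1) were closest to EGFR, PDK2 (0.0978) and EEPD1 (0.116) to ERBB2, and YIPF5 (0.0411) and DNM2 (0.0425) to ERBB3. ACAT1 (0.0556) and TP53I11 (0.0589) were closest to FGFR1, ALCAM (0.132) and LAMA3 (0.164) to FGFR3, and GALT (0.11) and UBE2D4 (0.116) to FGFR4. TNFRSF10B (0.0417) and ZNF496 (0.0459) were closest to ERRFI1, and CYP1A2 (0.301) and CYP4F12 (0.307) to FGFR2. Among the members, ERRFI1 and FGFR1 were the most alike (0.109), and EGFR was closer to ERBB3 (0.333) than to ERBB2 (0.513) or FGFR3 (0.843). ALCAM, an adhesion molecule at 161 ± 6.12 CPM in LNCaP, 506 ± 32.4 in C4-2 and 57.9 ± 4.31 in MR49F, shows the FGFR3 pattern at a higher level. The 9 libraries form only 3 lines, so many genes come close to any such pattern.

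Genes next to the members on the chromosome had their own values. The nearest tested coding genes to EGFR were SEC61G (0.52 in MR49F, adjusted p = 5.38e-05) and LANCL2 (0.30, adjusted p = 0.00650), both higher in the line where EGFR was lower. In C4-2, where EGFR was higher, SEC61G was also higher (0.23, adjusted p = 0.0354), a call lost in 7 of 16 alternatives (adjusted p 0.00710 to 0.160), among them without any 1 LNCaP library, C4-2 replicate 1 (0.14) or C4-2 replicate 3. LANCL2 had -0.20 there (adjusted p = 0.0583), and passed with C4-2 replicate 1 thinned (adjusted p = 0.0497) or without MR49F replicate 3 (0.0370), in a range up to 0.188. Beside FGFR3, LETM1, 2.61 kb away, had the log2 fold changes 0.04 in MR49F (adjusted p = 0.682) and -0.59 in C4-2 (adjusted p = 1.51e-06). TACC3, on its other side, had -0.22 (adjusted p = 0.0395) and -0.23 (adjusted p = 0.0306). The MR49F call of TACC3 was lost without any 1 of the LNCaP or MR49F libraries (adjusted p over 16 alternatives 0.00147 to 0.117), and the C4-2 call without any 1 LNCaP library, C4-2 replicate 2 or 3, or the count filter (0.000305 to 0.108). The C4-2 values of both neighbours are negative where that of FGFR3 is 1.84. Beside ERBB2, GRB7, which encodes an adaptor that binds ERBB2 and lies 7.50 kb away, fell in MR49F (-0.58, SE 0.178, adjusted p = 0.0110) and had the log2 fold change 0.18 in C4-2 (adjusted p = 0.362). The fall was no longer called without LNCaP replicate 3 (-0.49), MR49F replicate 1 (-0.51) or MR49F replicate 3 (-0.52), in a range of adjusted p from 0.00241 to 0.0585. TCAP, on the other side of ERBB2 at 21.4 kb, was lower in both lines, as ERBB2 was (-0.84, SE 0.318, adjusted p = 0.0362 in MR49F, and -0.88, SE 0.288, adjusted p = 0.0149 in C4-2). Its MR49F call was lost in 6 of 16 alternatives, without LNCaP replicate 1 or 3, without any 1 MR49F library and with DESeq2 (adjusted p over all 16 from 0.00551 to 0.153). Its C4-2 call was lost in 3, without LNCaP replicate 1 (-0.77) or 3 (-0.68) and with DESeq2 (adjusted p over all 16 from 0.00225 to 0.0950). Beside FGFR2, neither WDR11 (0.09, adjusted p = 0.413) nor ATE1 (0.18, adjusted p = 0.137) passed in MR49F, although ATE1 did without C4-2 replicate 1 (adjusted p = 0.0450, in a range up to 0.400). In C4-2, ATE1 was lower (-0.27, adjusted p = 0.0264), a call lost in 5 of 16 alternatives (adjusted p 0.0015 to 0.122). WDR11 had -0.18 there (adjusted p = 0.1), and passed without C4-2 replicate 2 (-0.23, adjusted p = 0.0348).

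The other genes of the pathways were counted by role in 8 lists. Ligands of the ERBB family totalled 23.0 to 26.7 CPM in LNCaP, 45.6 to 51.4 in C4-2 and at most 35.0 in MR49F. Of the 11 genes, 5 were tested. In MR49F 2 rose and 1 fell (median log2 fold change 0.08, beside 0.0084 over all tested genes), and in C4-2 2 rose and 1 fell (median -0.13, beside -0.0012). EGF, the founding ligand of EGFR, averaged 8.33 ± 0.577 CPM in LNCaP, 27.4 ± 2.76 in C4-2 and 15.3 ± 1.15 in MR49F (SD, n = 3), and rose in both (0.87, SE 0.139, and 1.69, SE 0.129). EGF and its receptor were thus both higher in C4-2 than in LNCaP, while in MR49F the ligand was higher and the receptor lower. HBEGF, another EGFR ligand, rose in C4-2 (1.09, SE 0.183) and had the log2 fold change -0.07 in MR49F (adjusted p = 0.809). NRG4, a ligand of ERBB4, fell in both (-2.28 and -1.96) from 2.78 ± 0.608 CPM. NRG3, which also binds ERBB4, had 56 counts over the MR49F libraries, 4 over LNCaP and 1 over C4-2, and rose in MR49F (pooled ratio to LNCaP 12.8, exact 95% interval 4.72 to 48.5). Its fitted log2 fold change of 3.67 became 3.03 without LNCaP replicate 1 and 5.03 without LNCaP replicate 3.

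Of the 5 genes that release such ligands from the cell surface, 1 rose and 1 fell in MR49F (median 0.20), and 3 rose and 0 fell in C4-2 (median 0.38). The protease gene ADAM10 rose in C4-2 (0.61, from 270 ± 5.64 to 415 ± 47.7 CPM) and had the log2 fold change 0.03 in MR49F (adjusted p = 0.829). ADAM17, the main sheddase of EGFR ligands, rose in both (0.49 in MR49F and 0.38 in C4-2). RHBDF1, an inactive rhomboid that escorts ADAM17, fell in MR49F (-0.88, SE 0.111).

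None of the 18 FGF ligand genes passed the count filter, and 8 of them had 0 counts in all 9 libraries. Their sum was 0.965 to 1.48 CPM in LNCaP, 2.15 to 2.45 in C4-2 and 0.713 to 1.75 in MR49F. Of 12 co-receptors and binding proteins, 6 were tested. In MR49F 1 rose and 3 fell (median -0.29), and in C4-2 4 rose and 1 fell (median 0.49). KLB, the beta-Klotho co-receptor that lets FGFR4 and FGFR1 bind endocrine FGFs, had 44 counts over LNCaP, 416 over C4-2 and 0 over MR49F. It was higher in C4-2 (2.12, SE 0.218, adjusted p = 1.93e-07) and at least 16.1-fold lower in MR49F than in LNCaP (floor of 3 counts, taken over each line). The heparan sulfate carrier SDC4 went the same ways as FGFR3, from 85.0 ± 5.05 CPM to 182 ± 12.5 in C4-2 (1.10, SE 0.0843) and 28.5 ± 2.07 in MR49F (-1.58, SE 0.0938). SDC1 rose in both (0.69 in MR49F and 0.39 in C4-2). FGFRL1, an FGF receptor without a kinase, fell in C4-2 (-0.54) and had the log2 fold change -0.03 in MR49F (adjusted p = 0.795).

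All 17 genes of receptor turnover and inhibition were tested. In MR49F 4 rose and 7 fell (median -0.01), and in C4-2 3 rose and 1 fell (median -0.05). LRIG1, a membrane protein that lowers ERBB receptor levels, rose in MR49F from 105 ± 5.96 to 273 ± 12.8 CPM (1.38, SE 0.0777, adjusted p = 6.66e-12), and its relative LRIG3 fell (-0.76, SE 0.133). In MR49F, LRIG1 and ERRFI1 were thus higher where EGFR, ERBB2 and ERBB3 were lower, while the 7 genes of the list that fell, LRIG3 among them, went with the receptors. A link of any gene in this list to receptor levels was not tested. CBLC, a ubiquitin ligase of the CBL family, had 178 counts over LNCaP, 407 over C4-2 and 0 over MR49F, at least 65.0-fold lower than LNCaP against the same floor. RNF41, a ubiquitin ligase that acts on ERBB3, fell in C4-2 from 173 ± 10.4 to 79.3 ± 4.98 CPM (-1.13, SE 0.0824, adjusted p = 4.38e-10), the line in which ERBB3 was highest. In MR49F it had the log2 fold change -0.24 (adjusted p = 0.0208). Leaving out LNCaP replicate 1 (adjusted p = 0.0988) or MR49F replicate 3 (0.0595) ended this call, both at -0.20, in a range of 0.00106 to 0.0988 over 16 alternatives. The phosphatase gene PTPN12 fell in MR49F (-0.54) and rose in C4-2 (0.56), and SH3KBP1, a CBL partner in receptor uptake, rose in both (0.83 and 0.52).

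Of 20 adaptors and first effectors, 4 rose and 6 fell in MR49F (median -0.04), and 2 rose and 6 fell in C4-2 (median -0.06). GRB10 rose in MR49F and fell in C4-2 (0.81 and -0.50, from 193 ± 6.15 CPM). GAB2 rose in both (1.62 and 1.19) from a low level of 1.05 ± 0.212 CPM, 27 counts over LNCaP. The PI3K regulatory subunit gene PIK3R3 fell in both (-0.48 and -0.61), as did CRKL (-0.54 and -0.29). SHC1, the adaptor that links ERBB receptors to RAS, fell in C4-2 from 143 ± 1.59 to 82.8 ± 2.59 CPM (-0.78). Its log2 fold change in MR49F was -0.23 (adjusted p = 0.0274). That call was lost in 4 of 16 alternatives (adjusted p over all 16 from 0.00269 to 0.108). Of the 12 genes of the RAS to ERK core, 1 rose and 1 fell in MR49F (median 0.01), and 1 rose and 6 fell in C4-2 (median -0.18). ARAF, which encodes a RAF kinase, was the gene that rose in MR49F (0.42). HRAS was the gene that rose in C4-2 (0.24, adjusted p = 0.0373), a call lost in 11 of 16 alternatives (adjusted p over all of them 0.0155 to 0.168), among them without C4-2 replicate 1 (0.16).

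Feedback and target genes of ERK did not move one way. Of 17 tested, 4 rose and 6 fell in MR49F (median -0.33), and 6 rose and 6 fell in C4-2 (median -0.23). DUSP4, an ERK phosphatase, rose in MR49F from 17.9 ± 1.29 to 113 ± 3.01 CPM (2.66, SE 0.0985) and fell in C4-2 (-0.92). PHLDA1 rose in both (4.02 and 2.50), as did SPRY2, a feedback inhibitor of receptor kinases, from 0.851 ± 0.195 CPM (2.67 and 1.71). SPRY4, of the same family, fell in both (-2.11 and -0.43). ETV1, an ETS factor, had 7654 counts over LNCaP, 14 over C4-2 and 3 over MR49F, and CCND1, the list's most abundant gene, had the log2 fold changes 0.07 in MR49F (adjusted p = 0.474) and -0.25 in C4-2 (adjusted p = 0.0107).

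**Figure D5:**
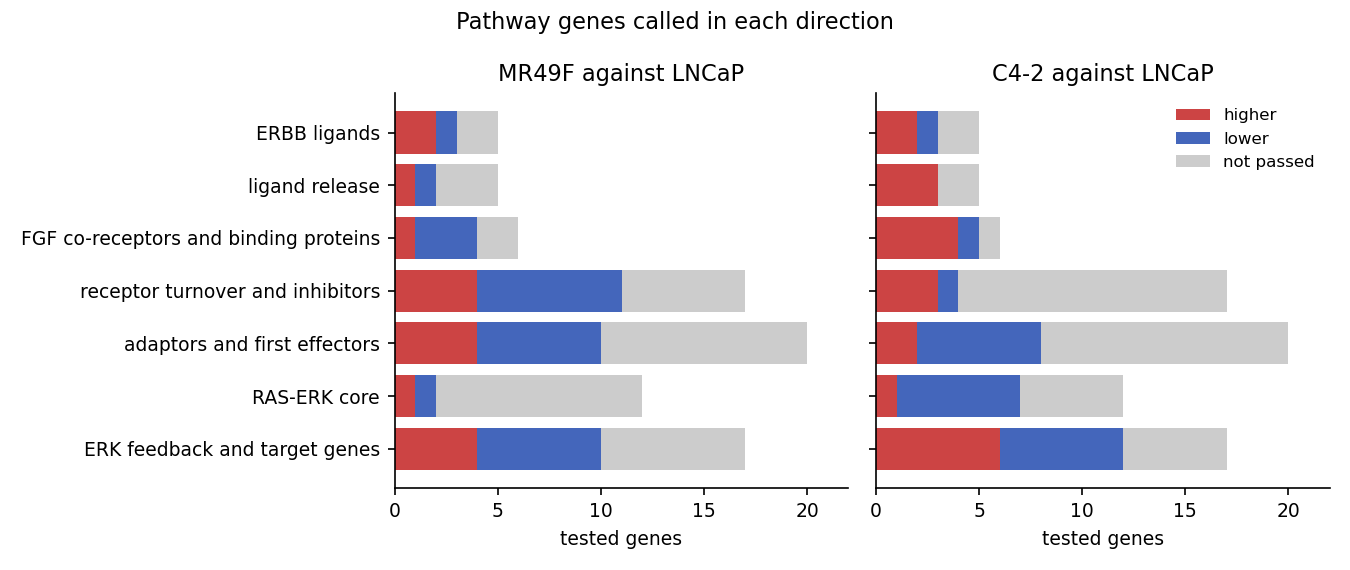
Number of tested genes in each of 7 pathway lists (FGF ligands had none) that were higher, lower or did not pass at an edgeR adjusted p under 0.05, in MR49F against LNCaP and C4-2 against LNCaP. In the receptor turnover list 4 rose and 7 fell in MR49F, and 3 rose and 1 fell in C4-2.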

How the data were processed

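The deposited table gives whole-number counts for each Ensembl gene, not normalized by the authors, in 1 column per library. Per the labels' protocols, poly(A) RNA was sequenced from a stranded TruSeq kit on a HiSeq2500. Named in the submitters' processing notes, without roles, are TopHat2, HTSeq 0.6.1, FastQC 0.11.3, edgeR 3.12.1 and GRCh38. No strand setting, annotation release or filter is given in the sources used here. Columns were matched to samples by name, and 3 columns that match no sample were not used in any step, so the planned C4-2R comparison was not made.

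Symbols were available for 56948 of 57992 IDs, and GENCODE 29 (GRCh38) gave coordinates and exon lengths for 57388. The members and lists were chosen with earlier results of these data known. edgeR 4.0.16 (R 4.3.3) was fitted to all 9 libraries with 1 mean per line, TMM scaling, filterByExpr and a robust quasi-likelihood test, with 6 residual degrees of freedom. SE is the absolute log2 fold change over the square root of F. The script was tested on simulated data. Few counts limit genes under about 1 CPM. Names from the lists are up to 2 called genes per direction by lowest adjusted p and the most abundant gene, with the 2 most alike genes and the nearest tested coding gene on each side of each member. A gene that this rule names is not reported here. Alternatives were DESeq2 1.42.0, RLE scaling, 2 other count filters, only the 6 libraries compared, a replicate block, a random 17.6% of the counts of C4-2 replicate 1, and each library left out. A longest-transcript length for levels and shares, RLE-scaled levels, levels without each library and count ratios without each C4-2 library were added after seeing the data. GRCh38.p14 promoter windows are RefSeq's. They were matched by symbol and gene start for 7 of the 9 members.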

Additional observations from a re-analysis of the deposited data

How the results depend on the processing

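Each of the 8 tested genes was refitted under 16 alternatives in each of 3 comparisons, 384 values in all, of which 360 kept their direction and their side of the threshold, 18 lost a call, 3 gained one and 3 turned in sign. The lost and gained calls were those of ERBB3, FGFR2 and FGFR4 given above. The sign of FGFR4 in C4-2 against LNCaP turned without a count filter (0.02) and with 1 library left out (range -0.10 to 0.15). Among the members, pathway genes and neighbouring genes refitted, no called value turned in sign. Among uncalled pathway genes, signs turned with 1 library left out for ADAM10 (range -0.03 to 0.06) and HBEGF (-0.32 to 0.11) in MR49F against LNCaP, for ARAF (-0.07 to 0.11), LRIG1 (-0.04 to 0.04) and LRIG3 (-0.04 to 0.16) in C4-2 against LNCaP, and for NRG4 in MR49F against C4-2 (-0.65 to 0.04). Among uncalled neighbouring genes, the same ranges were -0.02 to 0.06 for PARK7 and -0.08 to 0.04 for PGAP3 in MR49F against LNCaP. They were -0.01 to 0.28 for GRB7, -0.05 to 0.23 for MIEN1, -0.12 to 0.01 for PA2G4 and -0.14 to 0.03 for RPS26 in C4-2 against LNCaP. In MR49F against C4-2 they were -0.40 to 0.17 for LETM2, -0.03 to 0.31 for NSD3, -0.06 to 0.11 for TACC3 and -0.01 to 0.14 for TCAP. TACC3 was also at -0.03 without a count filter and -0.01 in the 6 libraries alone. LRIG1 was at -0.002 with at least 1 CPM in 3 libraries. Counts of called genes stayed within 1.5 times. Deviations of same-numbered libraries from their line means correlated from -0.267 to 0.284, and those of differently numbered libraries from -0.362 to 0.406. With 3 libraries per line, these values cannot show whether replicate numbers pair the samples. With the replicate block, 3646 genes were higher and 3469 lower in MR49F against LNCaP, in place of 3719 and 3516, and no member's call changed. In C4-2 against LNCaP, HRAS (0.23, edgeR adjusted p = 0.0535) and SEC61G (0.22, edgeR adjusted p = 0.0507) lost their calls with the block. FGFR2 in LNCaP and ERBB4 are limited by depth.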
